A study of Mus musculus with 16 samples.

Results

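Hmga2 encodes a small chromatin protein of the high mobility group A family, and its histone marks were followed here in mouse mesenchymal stem cell (MSC) lines with and without Dicer. The members were all deposited peaks that overlapped the mm9 window chr10:119790000-119925000, which holds the gene on the minus strand, so that its promoter lies at the higher coordinates. Of 289380 peaks on chromosomes 1 to 19 and X in 24 lists, 56 met the window, of which 46 came from lists called against whole-cell extract and 10 from difference lists. The lines were C57BL/6, immortalized and monoclonal. KO lines were Dicer -/- and WT lines Dicer f/f, with the gene floxed but not deleted, so each line stands for 1 clone. Chromatin was crosslinked with formaldehyde, sonicated and pulled down with antibodies against 3 marks, with 2 libraries per mark and genotype. The labels did not say whether replicates came from separate cultures or clones, so the spread given here may be technical. No gene annotation of mm9 was at hand, so the cell type was not checked against its markers.

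HMGA2 binds the minor groove of AT-rich DNA through short AT-hook motifs and alters the shape of chromatin. It is abundant in embryonic and fetal tissue, low in most adult tissue, and often expressed again in tumours. Its mRNA is a classic target of the let-7 microRNAs, which rise late in development and pair with sites in its 3′ untranslated region. Dicer cuts the let-7 precursors into their mature form, and cells without Dicer make almost no mature let-7. H3K4me3 marks active and poised promoters, H3K36me3 is laid down over transcribed gene bodies, and H3K27me3 is the product of Polycomb repressive complex 2.

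Mature let-7 microRNAs, which depend on Dicer, are shown because they link the genotype to this gene. RefSeq (GRCm38.p6) held 11 names of the let-7 family, miR-98 included, and 10 of them had the same seed, bases 2 to 8. Capitals mark the seed in 5 of them and in let-7j, whose seed differs, and a perfect site for the shared seed in an mRNA reads CUACCUC.
let-7a-5p: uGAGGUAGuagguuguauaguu
let-7b-5p: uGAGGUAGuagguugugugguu
let-7d-5p: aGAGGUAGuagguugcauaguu
let-7g-5p: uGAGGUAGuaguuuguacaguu
miR-98-5p: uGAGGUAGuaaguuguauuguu
let-7j: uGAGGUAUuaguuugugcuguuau
The files hold no RNA measurement, and no part of the 3′ untranslated region was used here.

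For all comparisons the window was divided into a promoter end, the 20 kb on the 5′ side, and a body of 115 kb. The measure was the covered length, the number of base pairs under the peaks of a library's list against whole-cell extract. The depth of every library was unknown, since the lists carry no read counts, and peak calling favours libraries with more reads or stronger enrichment. H3K4me3 lists covered 32.2 and 52.7 Mb in KO and 25.0 and 44.1 Mb in WT on chromosomes 1 to 19 and X. H3K36me3 lists covered 87.0 and 110.2 Mb in KO and 108.2 and 176.6 Mb in WT. H3K27me3 lists covered 0.732 and 34.4 Mb in KO and 4.67 and 37.9 Mb in WT, and KO replicate 1 held only 703 peaks. With 2 libraries against 2, an exact two-sided permutation test cannot give a p below 0.333, and all 6 comparisons of covered length had a Benjamini-Hochberg adjusted p of 1 in that exact test. Each library's value is therefore given first.

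H3K27me3 lay at the Hmga2 promoter in the WT lines, while the KO lists held no H3K27me3 peak anywhere in the window. Covered length at the promoter end was 0 and 0 bp in KO replicates 1 and 2, against 606 and 5607 bp in WT replicates 1 and 2. Both WT libraries were above both KO libraries, and the difference of means was -3106.5 bp (KO 0 ± 0, WT 3106.5 ± 3536.2 bp, SD, n = 2 each, exact permutation p = 0.333). The 2 WT values differed from each other by more than the KO values differed from WT replicate 1. Both WT libraries were above both KO libraries in 2.56% of all 24016 H3K27me3 regions, made by merging the 4 lists of the mark, and in 1 of the 2 regions at Hmga2, the one on the gene side. That pattern needs a peak in WT replicate 1, whose list held only 2558 peaks, which limits the share. The body held no H3K27me3 peak in any of the 4 libraries. The difference was -606 bp without WT replicate 2 and -5607 bp without WT replicate 1, so its size rested on which WT library was used. With peaks of a score of at least 160 the WT replicate 1 peak dropped out, which left that library at 0 bp like KO, and the difference was -2803.5 bp (exact permutation p = 1).

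In WT replicate 2 the mark formed a pair of peaks around the promoter. The peak on the gene side, chr10:119910032-119913087, was 3056 bp wide with an authors' score of 583.51, higher than 74.6% of that list. The upstream peak, chr10:119914213-119916763, was 2551 bp wide with a score of 743.29, higher than 78.8% of the list. A gap of 1125 bp without H3K27me3 separated them. In WT replicate 1 the list against extract held only a peak at chr10:119910887-119911492, 606 bp wide, inside the gene-side peak of replicate 2. Its score of 81.62 was higher than only 2.31% of that list, close to the lowest score of any list, 80.

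The difference lists called both regions WT-higher in both replicates. A difference list holds peaks of a library against a control that the sources used here do not name, and it was taken as the opposite genotype with the same replicate number. At Hmga2, 9 of the 10 difference peaks matched a peak of that library's own list base for base, which ties a list to its library but not to its control. Neither region was KO-higher in both replicates, against 0.171% of all H3K27me3 regions. Both regions were made by WT peaks alone, so a KO-higher call there was unlikely beforehand and a WT-higher call likelier than over all regions. Over all regions of the mark 4.03% were WT-higher in replicate 1, 21.0% in replicate 2 and 3.76% in both. The WT replicate 1 difference list held 1420 peaks against 5180 in WT replicate 2, which limits the shares in replicate 1 and in both. Of the 967 regions called in replicate 1, 904 were called in both, so most replicate 1 calls recurred, as those at Hmga2 did. In WT replicate 1 the upstream region was called by a difference peak of 980 bp, chr10:119914875-119915854, that had no counterpart in that library's list against extract. The replicate 1 calls were weak, with scores of 81.62 and 152.14, while those of replicate 2 were 583.51 and 799.14. Neither region was called in both replicates when a score of at least 160 was asked for.

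The absence of peaks in KO replicate 2 stands beside a list longer in number than that of WT replicate 2, with 17491 against 14932 peaks. In covered length that KO list was the shorter one, with 34.4 against 37.9 Mb. Of the 3786 WT replicate 2 peaks that scored at least as high as the gene-side peak, KO replicate 2 overlapped 69.7% and KO replicate 1 overlapped 7.82%. Of the 2499 WT replicate 1 peaks that scored at least as high as its Hmga2 peak, KO replicate 2 overlapped 68.4% and KO replicate 1 overlapped 9.40%. The empty window in KO replicate 1 was thus shared by most WT peaks, and that in KO replicate 2 by about 30.3% of the peaks of like or higher score in WT replicate 2. These shares were computed after the values at Hmga2 were seen.

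**Figure D1:**
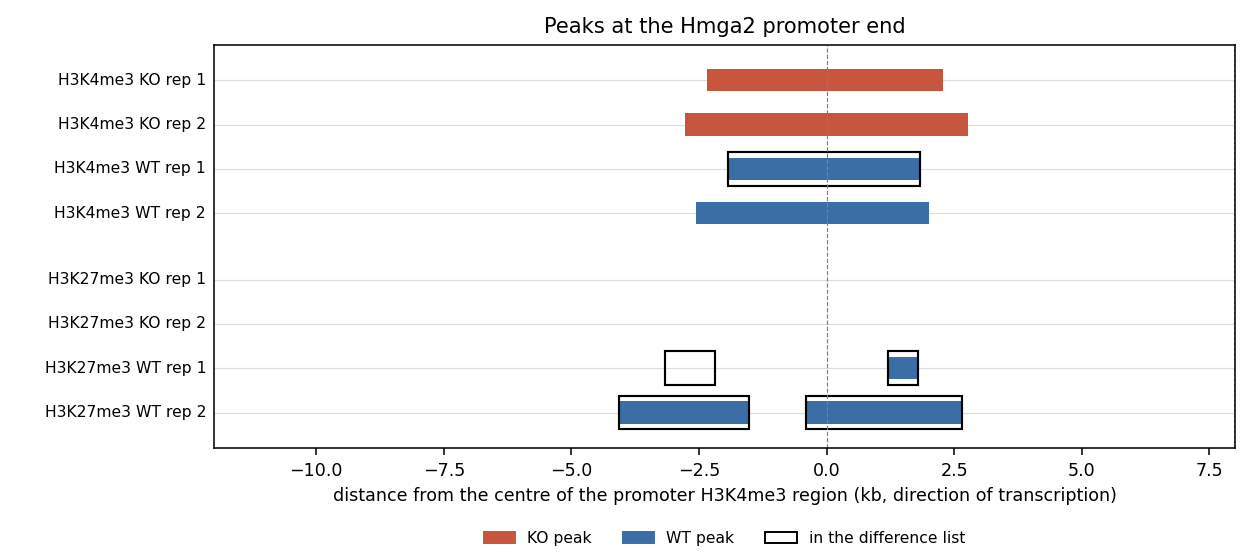
Peaks of H3K4me3 and H3K27me3 over the 20 kb promoter end of Hmga2 by library, placed by distance in kb from the centre of the merged promoter H3K4me3 region, in the direction of transcription. Filled bars are peaks against whole-cell extract in KO (red) and WT (blue), and black outlines are peaks of the difference lists. H3K4me3 is present in all 4 libraries, and H3K27me3 peaks stand only in the WT rows.

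H3K4me3 covered the Hmga2 promoter in every library. At the promoter end the KO peaks were 4627 and 5557 bp long and the WT peaks 3753 and 4556 bp, as 1 peak in each library. Both KO libraries were thus longer than both WT libraries, but KO replicate 1 exceeded WT replicate 2 by little. The means were 5092 ± 657.6 bp in KO and 4154.5 ± 567.8 bp in WT (SD, n = 2 each, difference 937.5 bp, exact permutation p = 0.333). Without KO replicate 2 the difference was 472.5 bp, and without WT replicate 1 it was 536 bp. Both KO libraries were above both WT libraries in 12.8% of all 25204 H3K4me3 regions, and the KO lists as a whole were longer within each replicate number. Per Mb covered by the whole list the promoter had 143.6 and 105.5 bp in KO, against 150.0 and 103.4 bp in WT, which turned the difference to -2.14 bp per Mb. On that scale KO was below WT in replicate 1 and slightly above it in replicate 2, so the genotypes overlapped. The scale also depends on how many peaks a list holds. By width rank within its own list the promoter peak stood higher in both KO lists (98.2% and 97.5%) than in both WT lists (94.6% and 93.2%).

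The promoter peak was among the wider ones of every list. It was wider than 98.2% and 97.5% of the peaks of the KO lists and than 94.6% and 93.2% of those of the WT lists. Its score was 3100 in each library, a value shared by 39.8% and 43.6% of the KO peaks and 40.4% and 56.1% of the WT peaks, so it does not rank the libraries. The WT replicate 1 difference list held the promoter peak with a score of 249.38, although that library's peak was the shortest of the 4. No other difference list held it. Of 4 merged H3K4me3 regions at Hmga2 none was KO-higher in either replicate, where 20.7% and 23.8% of all regions were. In replicate 1, 2 of them were WT-higher, against 7.19% of all regions, and none was in replicate 2, against 5.07%. Calls in both replicates were thus 0 of 4 regions for KO-higher and for WT-higher, against 10.8% and 1.12% of all regions.

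H3K4me3 and H3K27me3 overlapped at the promoter in the WT lines. Of the promoter H3K4me3 peak, 0 and 0 bp were overlapped by H3K27me3 in the KO libraries, against 606 of 3753 bp in the first WT replicate and 3431 of 4556 bp in the second. Promoters with both marks are called bivalent, a state known from developmental genes in embryonic stem cells. Peak lists describe a population of cells, and whether the marks sat on the same chromosomes was not tested. Over all H3K4me3 regions 0.901% were overlapped by H3K27me3 in both WT libraries and in neither KO library, and the Hmga2 promoter was 1 of these 227 regions. H3K27me3 met 823 H3K4me3 regions in both WT libraries. Of these, 87.2% had no H3K27me3 peak in KO replicate 1 and 27.6% had none in KO replicate 2. The 227 regions without a peak in KO replicate 2 all lacked one in KO replicate 1 too, so KO replicate 2 alone set their number. In WT replicate 1 the place of Hmga2 among them rested on a peak with a score of 81.62, close to the lowest score of 80.

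The promoter sequence upstream of the start site is shown because both marks lay over the promoter. The 250 bases before the RefSeq start are given from GRCm38.p6, chr10:120476470-120476719 on the minus strand, a build whose positions differ from those of mm9, so the start was not placed within the peaks. Capitals mark each CTCTCT, a motif chosen after the sequence was seen.
Hmga2 promoter: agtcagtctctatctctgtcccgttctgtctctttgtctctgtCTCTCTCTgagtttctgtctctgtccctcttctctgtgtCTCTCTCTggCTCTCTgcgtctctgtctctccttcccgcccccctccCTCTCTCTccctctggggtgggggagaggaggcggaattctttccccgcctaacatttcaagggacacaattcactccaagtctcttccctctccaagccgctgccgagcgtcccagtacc
C and T made up 70.8% of these bases, a higher share than in 99.6% of 32851 RefSeq promoter entries over the same 250 bases. CTCTCT occurred 7 times, overlapping matches included, on the strand shown and 0 times on the other strand, and 23.4% of all promoters held it at least once on either strand. The window held 8 CpG dinucleotides, more than 57.0% of promoters, and 56.4% G and C. Such a pyrimidine tract is a known feature of the Hmga2 promoter in mouse and human.

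H3K36me3 marked the first part of the gene and varied more between the WT libraries than between the genotypes. In the body it covered 7597 and 11082 bp of KO chromatin, against 12340 and 2895 bp in the WT libraries. The KO values lay between the WT values (9339.5 ± 2464.3 bp in KO, 7617.5 ± 6678.6 bp in WT, SD, n = 2 each, difference 1722 bp, exact permutation p = 1). At the promoter end its lengths were 1605 and 3125 bp in KO, against 2599 and 0 bp in WT (difference 1065.5 bp, exact permutation p = 0.667). Without WT replicate 2 the differences were -3000.5 bp in the body and -234 bp at the promoter end, and without KO replicate 2 that in the body was -20.5 bp. The direction thus rested on single libraries.

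The H3K36me3 peaks began just past the promoter H3K4me3 peak. Measured from the centre of the promoter H3K4me3 region, 11 merged H3K36me3 regions met the window, and 10 of them formed a chain in the first part of the gene. That chain ran from 4.77 to 35.6 kb in KO replicate 1, from 4.32 to 35.6 kb in KO replicate 2, from 4.13 to 35.3 kb in WT replicate 1 and from 7.73 to 29.7 kb in WT replicate 2. The remaining region, chr10:119798306-119799920, lay at 112.8 to 114.4 kb, near the 3′ side of the window. It was 1615 bp wide with a score of 250.16 and was listed in KO replicate 2 alone. No H3K36me3 peak was listed between these parts in any library.

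The difference lists called H3K36me3 at Hmga2 in 1 replicate only. KO replicate 2 held 4 difference peaks in the window, at 4 of 11 regions, and 2.31% of all 39794 H3K36me3 regions were KO-higher in that replicate. The called regions were the one nearest the promoter, 2 further in the chain and the one at the 3′ side, with scores of 110.06 to 197.29. WT replicate 2, taken as their control, had 0 bp in them except for 853 bp in chr10:119882099-119884503. A KO-higher call there was thus likelier than over all regions. No region was KO-higher in replicate 1, against 4.23% of all regions, and none was WT-higher in either replicate, against 5.76% and 8.42%. Calls in both replicates were thus 0 for KO-higher, against 0.668% of all regions, and 0 for WT-higher, against 1.24%. Both WT libraries were above both KO libraries in 1 of the 11 regions, against 22.7% of all H3K36me3 regions. Of the 10 chain regions 7 were listed in both KO libraries. In the whole window 3 regions were listed in a single library, namely the one at the 3′ side and chr10:119902504-119903813 in KO replicate 2 and chr10:119888943-119889771 in WT replicate 1.

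The H3K36me3 list of WT replicate 2 covered the most of the genome among the 12 lists and the least of Hmga2 among the 4 of its mark. Its window held 3 peaks with scores of 86.10 to 103.43, which were higher than 2.33% to 7.72% of its list. The other libraries listed 9 to 10 peaks each. Per Mb of list the body had 87.3 and 100.6 bp in the KO libraries and 114.0 bp in the first WT replicate, but 16.4 bp in the second. The genome was cut into tiles of 135 kb, as long as the window, and 4222 of them had at least 5 kb of H3K36me3 in WT replicate 1. The ratio of covered length in WT replicate 2 to WT replicate 1 had a median of 1.48 over these tiles and was 0.194 at Hmga2. Only 46 tiles, or 1.09%, had a lower ratio. This ratio was chosen after the values were seen.

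**Figure D2:**
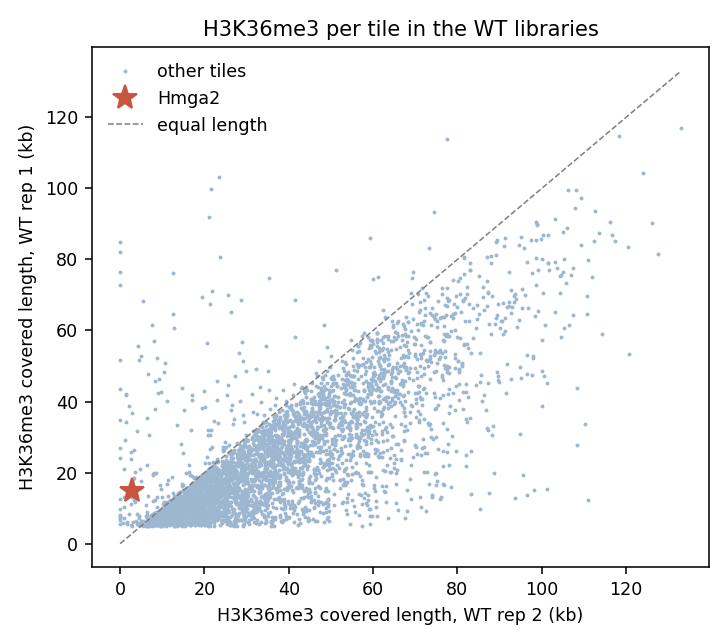
Covered length of H3K36me3 in kb per 135 kb tile, with WT replicate 2 on the x axis and WT replicate 1 on the y axis, for the 4222 tiles with at least 5 kb in WT replicate 1. The Hmga2 tile (star) stands at the low side for WT replicate 2, while the median tile had 1.48 times as much in replicate 2 as in replicate 1.

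H3K4me3 was also listed inside the gene, about midway through the window. In the body its peaks summed to 985 and 4770 bp in KO, against 1417 and 5796 bp in WT (2877.5 ± 2676.4 bp in KO, 3606.5 ± 3096.4 bp in WT, SD, n = 2 each, difference -729 bp, exact permutation p = 0.667). Replicate 2 was the longer one in both genotypes, and the ranges of the genotypes overlapped. Within each replicate number the difference was negative, at -432 bp in replicate 1 and -1026 bp in replicate 2. It turned to 1163.5 bp without KO replicate 1 and to 1460.5 bp without WT replicate 2, settings that leave the replicate numbers unbalanced. A region at chr10:119864976-119867789, starting 44.9 kb past the promoter centre, had 0 and 2799 bp in KO, against 1417 and 2664 bp in WT. Its neighbour at chr10:119858449-119860419 had 985 and 1971 bp in KO, against 0 and 1850 bp in WT. Replicate 1 thus listed 1 of these regions in each genotype, and not the same one, while replicate 2 listed both in each genotype. The first was WT-higher in replicate 1, with a score of 284.48, and not in replicate 2. A weak peak at chr10:119814135-119815416, with a score of 95.89, was listed in WT replicate 2 alone. Whether these are start sites of transcription was not tested.

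**Figure D3:**
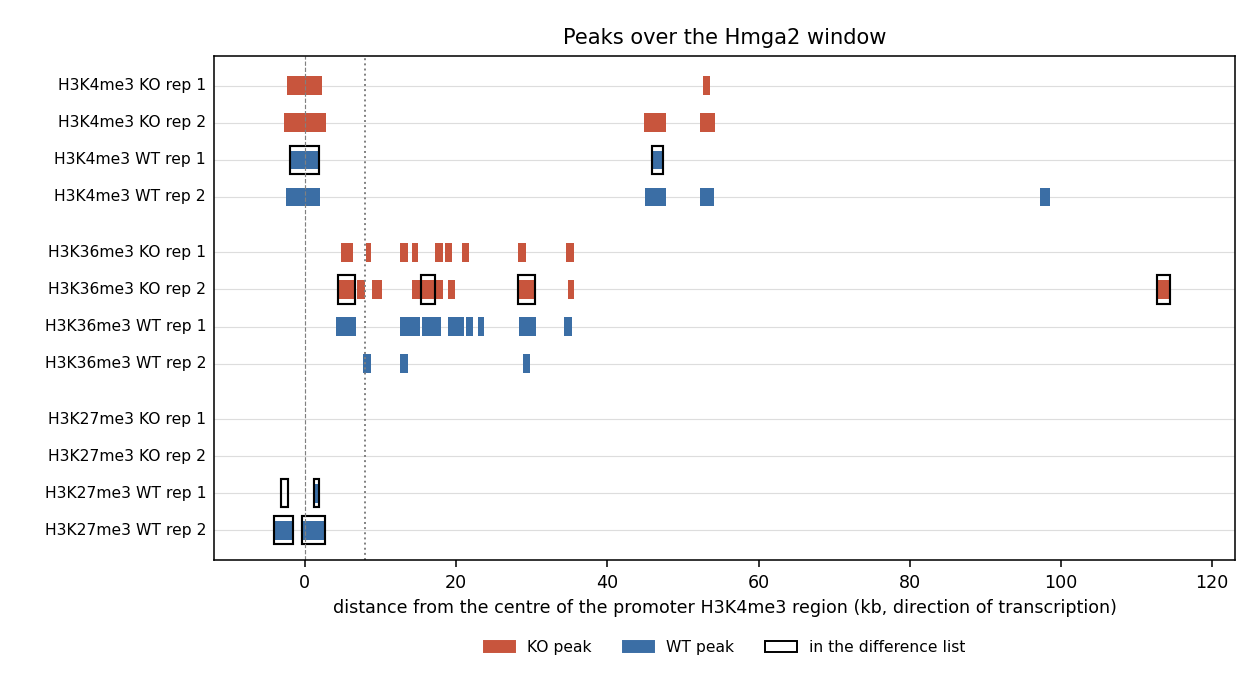
Peaks of the 3 marks over the Hmga2 window by library, placed by distance in kb from the centre of the promoter H3K4me3 region, with the dotted line at the border of promoter end and body. Filled bars are peaks against whole-cell extract in KO (red) and WT (blue), and outlines are difference peaks. H3K36me3 begins past the promoter and is sparse in WT replicate 2, and the internal H3K4me3 peaks lie beyond its chain.

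**Figure D4:**
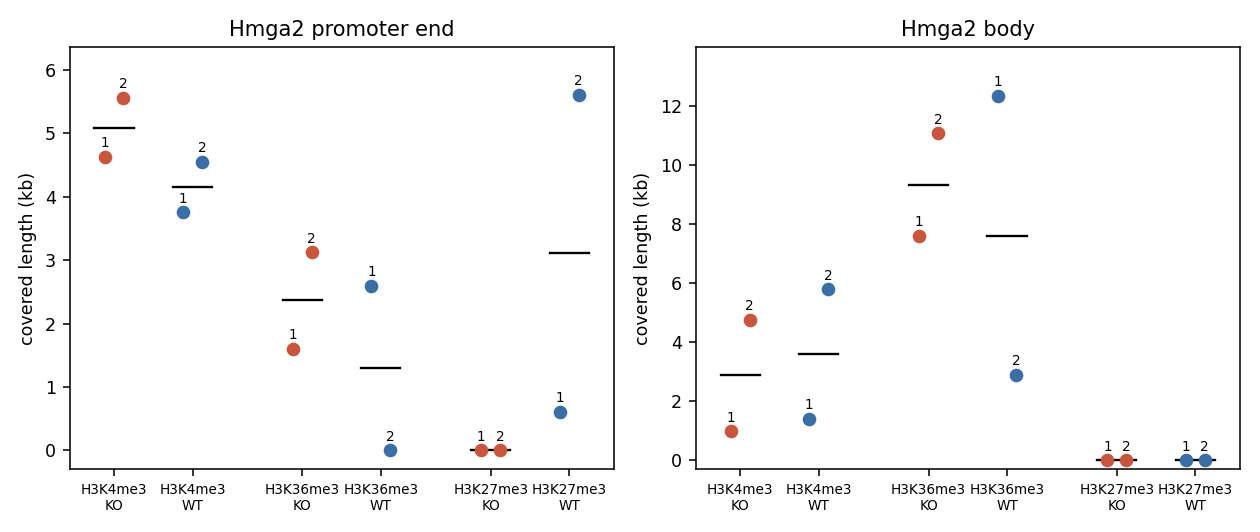
Covered length in kb at the promoter end and in the body of Hmga2, by mark and genotype. Each point is a library with its replicate number, and each line is the mean of 2 libraries. KO and WT points do not overlap for H3K4me3 and H3K27me3 at the promoter end and overlap for H3K36me3 in both parts.

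The flanks of the window, stretches of the same length, held little of the marks on the promoter side. The 135 kb upstream of the window held no H3K36me3 or H3K27me3 peak in any library, and H3K4me3 lengths there were 750 and 1281 bp in KO, against 0 and 1086 bp in WT. The 135 kb downstream held H3K27me3 in WT replicate 2 alone, over 5212 bp. H3K4me3 lengths downstream were 3297 and 4534 bp in KO, against 1687 and 3714 bp in WT, so the genotypes overlapped. Each KO difference list held 1 H3K4me3 peak downstream and each WT difference list 0. H3K36me3 lengths in that stretch were 4270 and 6143 bp in KO, against 5180 and 9539 bp in WT, so WT replicate 2 was there the longest and not the shortest. In RefSeq (GRCm38.p6) the nearest protein-coding genes are Msrb3 upstream and Llph downstream of Hmga2.

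Hmga2 was set beside 19536 tiles of the genome, most of which held no peak of a given mark, so the comparison was made among tiles with at least 1 peak in that library. Such tiles made up 37.5% and 46.5% of all tiles for H3K4me3 in KO and 32.5% and 41.5% in WT. Among them the H3K4me3 length of Hmga2 was above that of 72.8% and 84.3% in KO and of 76.3% and 88.1% in WT. For H3K36me3, listed in 26.9% and 29.4% of tiles in KO and 28.6% and 32.8% in WT, Hmga2 was above 44.6% and 51.1% of the listed tiles in KO and above 52.5% and 10.0% in WT. Its H3K36me3 length was thus middling in 3 libraries and low in WT replicate 2. For H3K27me3 the window had none in KO, where 2.59% and 24.0% of tiles held a peak. In WT, where 6.54% and 24.1% did, it was above 3.60% of those tiles in replicate 1 and 58.6% in replicate 2. Both WT libraries exceeded both KO libraries in H3K27me3 at Hmga2, as they did in 5.70% of the 6161 tiles with any H3K27me3. Such a tile needed a peak in WT replicate 1, which 1277 tiles had, and 351 of these met the criterion.

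The tiles most like Hmga2 over the 12 lists against extract were chr7:148230001-148365000, chr12:111915001-112050000 and chr14:56295001-56430000. Likeness was the Euclidean distance over log2 of covered length plus 1000 bp, at 1.91, 1.92 and 2.03 log2 units, where the median tile was at 9.37. The distance used the lengths given here, so what the tiles share with Hmga2 follows from how they were chosen. Like Hmga2, they had no H3K27me3 peak in either KO library. In the first WT replicate they had 851, 0 and 0 bp of it, and in the second 6250, 3263 and 5431 bp. None had the low H3K36me3 of Hmga2 in WT replicate 2, with 8497, 8292 and 12614 bp there. No gene was assigned to these tiles.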

How the data were processed

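Histone ChIP-seq peak lists of 12 libraries (3 marks, 2 genotypes, 2 replicates each) were analysed; the 4 whole-cell extract samples had no lists of their own here. The submitters' processing notes name Bowtie 0.12.7, the build mm9 and MACS, for which they name no version. For each library, unpooled, the authors deposited 1 list called against whole-cell extract plus 1 difference list, and gave every peak a score without stating how it was computed. Scores were used only to filter or rank within a list. Samples were grouped by mark and genotype from their titles.

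From these lists, peaks on chromosomes 1 to 19 and X were clipped to the promoter end or body and their union measured, with Python 3.11.15, numpy 2.4.6 and pandas 2.3.3. Per mark, overlapping or adjoining peaks of the 4 lists against extract were joined into regions, and a region was called where a difference peak overlapped it by at least 1 bp. Means were compared by exact two-sided permutation over libraries. The code was tested on simulated lists. Hmga2 was the only named gene; all its regions and the 3 tiles nearest in covered length are described. The gene, window and tests were chosen with earlier results of these data known. Other let-7 targets were not analysed here, since the gene table was of GRCm38 and positions were not converted. Alternatives changed the score minimum, the size of the promoter end, the treatment of peaks at its border, the scaling, the replicate block, the overlap needed for a call and the libraries used.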

Additional observations from a re-analysis of the deposited data

How the results depend on the processing

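Of 84 alternative values, 73 kept the direction or count given above. The 73 include values that could not change, such as those of the replicate block and of H3K27me3 in the body, where no library had a peak. At the promoter end both KO libraries had 0 bp of H3K27me3, so no setting could turn the sign of the difference. It ran from -606 to -5607 bp with 1 library left out. With a score of at least 160 that difference was -2803.5 bp but WT replicate 1 tied KO at 0 bp, and the exact p moved to 1. H3K4me3 at the promoter end kept its sign with 1 library left out (472.5 to 1402.5 bp) and turned to -2.14 bp per Mb of list. With 1 library left out the H3K4me3 body difference ran from -2918.5 to 1460.5 bp, turning to 1163.5 bp without KO replicate 1 and to 1460.5 bp without WT replicate 2. The H3K36me3 body difference ran from -3000.5 to 6444.5 bp, turning to -20.5 bp without KO replicate 2 and to -3000.5 bp without WT replicate 2. The H3K36me3 promoter end difference ran from -234 to 2365 bp, turning to -234 bp without WT replicate 2, and was 0 bp with a promoter end of 15 kb, where no library had a peak.

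The H3K27me3 calls in both replicates fell to 0 regions with difference scores of at least 160 and to 1 region when difference peaks had to cover at least 0.2 of its width. The region left was the upstream one, with 980 of 2551 bp called in WT replicate 1, a library without a peak against extract there. The gene-side region, with 606 of 3056 bp called in WT replicate 1, dropped out. Taken singly, the replicates gave 2 and 2 WT-higher H3K27me3 regions, 2 and 0 WT-higher H3K4me3 regions and 0 and 4 KO-higher H3K36me3 regions. The cause of these changes was not tested beyond what each setting removes. With the replicate block the differences were the same by construction (937.5, -729, 1065.5, 1722, -3106.5 and 0 bp), and 2 pairs cannot give an exact sign-flip p below 0.5. Same-numbered libraries deviated together over tiles, with correlations of 0.237 for H3K4me3, 0.113 for H3K36me3 and 0.249 for H3K27me3, but the labels do not say that a number marks a shared batch. Unknown depth limits every absence: a region without a peak may have been marked below the threshold.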
